A study of Mus musculus with 71 samples.

Results

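The genes described are 9 early response genes of the mouse hippocampus: the nuclear receptors Nr4a1, Nr4a2 and Nr4a3, the growth arrest and DNA damage genes Gadd45a, Gadd45b and Gadd45g, and the early genes Btg2, Ier2 and Ier5. They were chosen by name, as the entries of the count table whose Ensembl identifiers map to these symbols. They make up 9 of the 57010 genes in the table, and all 9 were among the 30141 genes tested. In GRCm39 the receptor genes are Nr4a1 (ENSMUSG00000023034) at chr15:101151980-101172681 on the plus strand, Nr4a2 (ENSMUSG00000026826) at chr2:56996842-57014331 on the minus strand and Nr4a3 (ENSMUSG00000028341) at chr4:48045153-48086447 on the plus strand. The GADD45 genes are Gadd45a (ENSMUSG00000036390) at chr6:67012070-67014441 on the minus strand, Gadd45b (ENSMUSG00000015312) at chr10:80764523-80768038 on the plus strand and Gadd45g (ENSMUSG00000021453) at chr13:52000714-52002508 on the plus strand. The others are Btg2 (ENSMUSG00000020423) at chr1:134002908-134015033 on the minus strand, Ier2 (ENSMUSG00000053560) at chr8:85387960-85389483 on the minus strand and Ier5 (ENSMUSG00000056708) at chr1:154972107-154975382 on the minus strand. All are protein coding, and the level of a gene is summed over its exons.

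The study asked how a high fat, high sugar diet and restricted feeding hours change the hippocampal response to learning. Male wild type C57BL/6J mice received their diet from the age of 3 weeks, for 12 weeks. NC ad lib mice had normal chow at all times, HFS ad lib mice had the high fat, high sugar food at all times, and HFS TRF mice had that food at all times for 8 weeks and then only during restricted hours for the last 4 weeks (time-restricted feeding). By the study's methods those hours ran from shortly before lights off until shortly after lights on. Such mice thus had no access to food 3 h after lights on, and had it 15 h after lights on. Mice were killed in the home cage 3 h after lights on (HC zt3) or 15 h after lights on (HC zt15), or they were killed 1 h (ORM+1 h) or 12 h (ORM+12 h) after a short training in object recognition memory. No group used here met the test setting without this training, so learning cannot be told apart from handling and exposure to that setting. Training took place over a span of hours, so trained mice were not all killed at exactly zt3 or zt15. By the times in the paper, ORM+1 h mice were killed at zt3 or later, and ORM+12 h mice on both sides of zt15. At +1 h this later hour cannot be told apart from training. The 36 mice of HC zt3 and ORM+1 h formed a first experiment and the 35 mice of HC zt15 and ORM+12 h a second. These diets are called NC, HFS and TRF from here on. Each of the 12 groups of diet and condition held 6 mice, except TRF at HC zt15, which held 5. The titles of the HFS TRF samples also carry the words ad libitum, and their diet label, which names restricted feeding, was followed. Mice were housed 6 to a cage, and which mice shared a cage was not given in the sources used here.

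What was sequenced is mRNA bound to ribosomes that carry phosphorylated S6, a mark of recently active cells, pulled down with an antibody from whole hippocampus (pS6-TRAP). A level is therefore a share of the mRNA captured from all cell types, so that fewer cells of a type and less RNA per cell cannot be told apart. Nor can either be told apart from a change in which cells had their ribosomes captured. In the paper RNA from before the pull-down was used for qPCR, and no such library is among those used here. Levels are given as CPM, the count of a gene relative to the size of its library after scaling by the trimmed mean of M values, and differences are log2 fold changes with their standard error (SE).

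NR4A proteins are orphan nuclear receptors that bind DNA as monomers or dimers and are regulated mainly through how much of them is made. Their genes are switched on within minutes of neuronal activity, through CREB and related factors, and they are widely studied in the consolidation of hippocampal memory. GADD45 proteins are small acidic partners of stress kinases and cell cycle proteins, and Gadd45b in neurons has been linked to activity-dependent DNA demethylation. Btg2 is an antiproliferative adaptor of the CCR4-NOT deadenylase, which shortens poly(A) tails. Ier2 and Ier5 are small nuclear proteins of the immediate early class, and Ier5 is known as a partner of the heat shock factor HSF1.

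The promoters of the NR4A genes and of Btg2 are shown because, of the windows matched, theirs hold letters of the cAMP response element (CRE), the site of CREB. Each RefSeq window runs from 250 bases before to 50 bases after the annotated start and was found exactly once in GRCm39. Capitals mark TGACG, the core of a CRE, or the same core read on the other strand as CGTCA. In Btg2 the capitals are the whole palindrome TGACGTCA, in which 2 cores overlap.
Nr4a1: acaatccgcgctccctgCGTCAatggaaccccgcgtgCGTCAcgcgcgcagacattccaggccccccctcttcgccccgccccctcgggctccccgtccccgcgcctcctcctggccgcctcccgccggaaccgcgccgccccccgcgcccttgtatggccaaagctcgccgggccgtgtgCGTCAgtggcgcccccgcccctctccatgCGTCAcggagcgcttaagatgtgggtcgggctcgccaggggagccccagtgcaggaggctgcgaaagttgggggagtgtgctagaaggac
Nr4a2: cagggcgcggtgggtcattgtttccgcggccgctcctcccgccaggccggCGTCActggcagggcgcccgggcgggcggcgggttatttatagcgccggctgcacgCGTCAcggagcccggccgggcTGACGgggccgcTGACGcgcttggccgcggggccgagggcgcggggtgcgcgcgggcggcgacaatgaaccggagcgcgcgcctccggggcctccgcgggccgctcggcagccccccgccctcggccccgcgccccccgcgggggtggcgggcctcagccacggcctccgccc
Nr4a3: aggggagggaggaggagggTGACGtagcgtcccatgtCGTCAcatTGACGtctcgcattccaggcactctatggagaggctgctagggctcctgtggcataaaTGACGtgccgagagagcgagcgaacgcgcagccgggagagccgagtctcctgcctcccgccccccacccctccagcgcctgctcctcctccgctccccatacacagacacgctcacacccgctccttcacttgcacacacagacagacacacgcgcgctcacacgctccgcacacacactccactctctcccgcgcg
Btg2: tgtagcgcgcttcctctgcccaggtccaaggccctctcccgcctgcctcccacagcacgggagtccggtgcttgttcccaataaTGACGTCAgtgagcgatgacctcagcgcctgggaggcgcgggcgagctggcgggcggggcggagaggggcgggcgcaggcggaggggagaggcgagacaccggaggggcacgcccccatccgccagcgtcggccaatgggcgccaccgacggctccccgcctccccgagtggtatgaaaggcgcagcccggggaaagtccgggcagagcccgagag
These windows lie at chr15:101164477-101164776 on the plus strand for Nr4a1, chr2:57013966-57014265 on the minus strand for Nr4a2, chr4:48045055-48045354 on the plus strand for Nr4a3 and chr1:134006844-134007143 on the minus strand for Btg2.

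Each NR4A window held 4 copies of the CRE core, a count reached by 0.231% of 32851 RefSeq windows of the same length, while 20.8% held at least 1. The search for the core alone was added after the sequences had been seen. The full CRE was found in Btg2, at -166 to -159, and in 1.79% of all windows. The windows of Gadd45a, Gadd45b, Gadd45g and Ier5 held neither the full CRE nor its core. No window of a matched gene held the AP-1 site (TGAGTCA or TGACTCA), the NR4A site AAAGGTCA or the Egr site GCGTGGGCG. Nor did any hold the strict CArG box, the site of SRF (CC, then 6 letters A or T, then GG). On both strands these 4 sites were present in 5.2%, 1.51%, 0.612% and 1.63% of all windows. Variants of these sites with a letter changed were not searched. RefSeq windows were matched for 8 of the 9 genes, and Ier2 had no entry. The NR4A windows were rich in G and C, at 72.3% for Nr4a1, 81.7% for Nr4a2 and 64.7% for Nr4a3 against a median of 52.7% over all windows. In the same order they held the letters CG 35, 52 and 26 times, against a median of 7. The CRE core itself contains CG, and the windows behind the share of 0.231% were not matched for it. The start used for Nr4a2 has an offset of -7769 bases from the canonical start in GENCODE, so its window lies away from that start. A match is a description of letters and not of binding.

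At rest in the morning the 9 genes differed widely in level. Per kilobase of the canonical transcript, the mean CPM over the 18 HC zt3 mice was 32.0 ± 3.59 (SD) for Nr4a3, 27.3 ± 6.51 for Nr4a1 and 11.7 ± 1.65 for Nr4a2. Gadd45g at 20.6 ± 4.45 CPM per kilobase, Gadd45b at 20.5 ± 4.03 and Ier5 at 19.7 ± 2.03 had means that lay within the SD of each other. Btg2 at 5.19 ± 1.53 CPM per kilobase, Ier2 at 4.53 ± 1.33 and Gadd45a at 3.73 ± 0.531 were the lowest. The order depends on which transcript the reads come from, since over all annotated exons together Nr4a1 had 6.37 CPM per kilobase and Nr4a3 had 30.6. The genes Nr4a1, Gadd45a and Btg2 each overlap 1 other gene of the table, and the strand setting of the counting was not given in the sources used here.

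**Figure D1:**
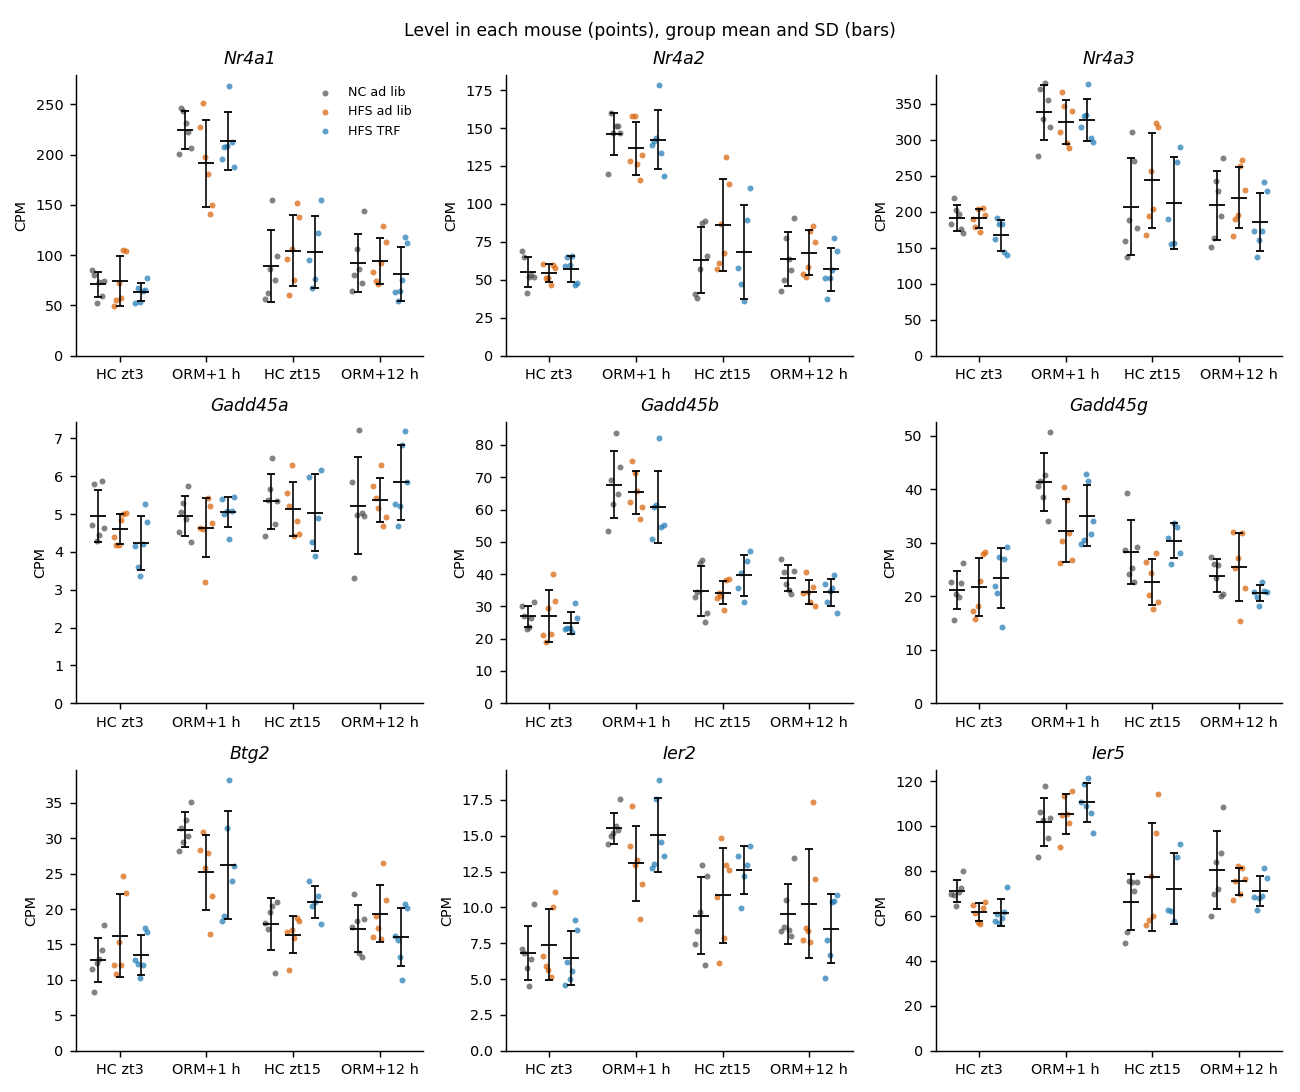
Level of each gene in each of the 71 mice, in CPM on a linear axis from 0, by condition (horizontal) and diet (colour), with the group mean and SD as bars. For Gadd45b the 18 ORM+1 h mice sit between 50.9 and 83.9 CPM, above the 18 HC zt3 mice at 19.1 to 40.0 CPM, while for Gadd45a the conditions overlap.

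Libraries held 34698914 to 62758570 counted reads, with a median of 53999489, and the counts of all 175 pairs of libraries of the same group differed by more than counting error. The summed CPM of 8 neuronal markers was 14152 to 21010 in the 71 mice, and that of 5 endothelial markers was 0.567 to 14.1. Markers of the labelled tissue were present in every library, with sums of 104 to 296 CPM for 4 genes of dentate granule cells, 294 to 644 CPM for 3 genes of CA1 and 195 to 375 CPM for 3 genes of CA3 pyramidal cells. The sum of 8 astrocyte markers was 728 to 2375 CPM at HC zt3 and 1381 to 3407 at ORM+1 h, and that of 7 choroid plexus markers ran from 97.2 to 18695 CPM. These sums are given beside the results they move with.

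At 1 h after training 8 of the 9 genes rose in NC mice, 7 in HFS mice and 8 in TRF mice, and none fell. Among all genes tested 4.03%, 0.74% and 2.24% rose on these diets (edgeR quasi-likelihood test, Benjamini-Hochberg adjusted p under 0.05). The median log2 fold change of the 9 genes was 1.19, 0.77 and 0.97, against 0.00, 0.00 and -0.01 over all genes. All 6 trained mice lay above all 6 home cage mice for 8 genes in NC, 5 in HFS and 8 in TRF, as they did for 3.19%, 0.819% and 2.14% of all genes. The gene without a call on any diet was Gadd45a, and Btg2 missed the threshold in HFS.

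Of the receptors, Nr4a1 had the largest log2 change in this model. In NC mice its level was 52.6, 74.0 and 85.0 CPM (lowest, median and highest of 6) at HC zt3 and 200.3, 227 and 246 CPM at ORM+1 h. In HFS mice it was 49.3, 65.3 and 105 CPM at rest and 141, 189 and 252 CPM after training. In TRF mice it was 52.7, 64.8 and 77.4 CPM at rest and 188, 208 and 269 CPM after training. On every diet the lowest trained mouse exceeded the highest home cage mouse. The change in Nr4a1 was 1.66 (SE 0.215, adjusted p = 8.51e-08), 1.37 (SE 0.213, adjusted p = 1.71e-05) and 1.75 (SE 0.216, adjusted p = 1.98e-08) on the log2 scale in NC, HFS and TRF, which is 3.17-fold, 2.58-fold and 3.37-fold.

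Nr4a2, a receptor also needed by dopamine neurons, gave nearly the same change on the diets. It was 41.5 to 69.1 CPM in the 18 HC zt3 mice and 116 to 178 CPM in the 18 ORM+1 h mice, so the conditions were apart. The median of the 6 mice went from 52.3 to 149 CPM in NC, from 54.8 to 130 CPM in HFS and from 59.3 to 140 CPM in TRF. Its log2 changes were 1.40 (SE 0.197, adjusted p = 9.13e-07), 1.32 (SE 0.197, adjusted p = 5.39e-06) and 1.32 (SE 0.197, adjusted p = 3.92e-06).

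Nr4a3, the third receptor, had the highest mean resting level per kilobase and the smallest log2 change of the family. Its 18 HC zt3 mice held 139 to 219 CPM and its 18 ORM+1 h mice 278 to 379 CPM, again without overlap. In log2 units it rose by 0.82 (SE 0.155, adjusted p = 0.00017) in NC, 0.77 (SE 0.155, adjusted p = 0.0022) in HFS and 0.97 (SE 0.155, adjusted p = 1.94e-05) in TRF. Differences in change between the receptors were not tested.

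The GADD45 genes did not give the same calls. Gadd45b had the smallest p of the 9 on every diet. At HC zt3 its level was 23.0, 26.7 and 31.3 CPM (lowest, median and highest) in NC, 19.1, 25.6 and 40.0 CPM in HFS and 22.1, 23.3 and 31.1 CPM in TRF. At ORM+1 h it was 53.4, 66.9 and 83.9 CPM, 57.1, 64.0 and 75.0 CPM, and 50.9, 58.0 and 82.1 CPM in the same order. Every trained mouse was above every home cage mouse, whatever the diet. Gadd45b rose by 1.33 (SE 0.130, adjusted p = 2.02e-11), 1.27 (SE 0.130, adjusted p = 1.9e-10) and 1.29 (SE 0.130, adjusted p = 6.99e-11).

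Gadd45g, best known from neural development, rose on all diets, with overlap in HFS. In NC mice it went from 15.6, 21.4 and 26.1 CPM at rest to 34.1, 41.0 and 50.7 CPM after training. HFS mice had 15.7, 20.6 and 28.3 CPM at rest and 26.2, 31.1 and 40.4 CPM after training, and 4 of 6 trained mice lay above all home cage mice. TRF mice had 14.2, 24.4 and 29.3 CPM at rest and 29.8, 32.9 and 42.8 CPM after training. The changes were 0.97 (SE 0.151, adjusted p = 8.39e-06), 0.57 (SE 0.15, adjusted p = 0.0323) and 0.58 (SE 0.15, adjusted p = 0.0149), and the call in HFS was lost in 7 of 12 fits that each left out 1 mouse and that in TRF in 3 of 12.

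Gadd45a, the founding member and a p53 target, gave no call. It was 3.37 to 5.87 CPM in the 18 HC zt3 mice and 3.19 to 5.75 CPM in the 18 ORM+1 h mice, which overlapped throughout. Its log2 changes were 0.00 (95% interval -0.27 to 0.27), 0.01 (-0.26 to 0.27) and 0.26 (-0.01 to 0.52) in NC, HFS and TRF.

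Btg2 and Ier2 rose in NC and TRF, and Ier2 also in HFS. The Btg2 level in NC was 8.28, 12.7 and 17.8 CPM at rest and 28.2, 30.9 and 35.1 CPM after training. In HFS it was 10.8, 13.8 and 24.7 CPM against 16.4, 26.8 and 30.8 CPM, with 4 of 6 trained mice above all home cage mice. In TRF it was 10.2, 12.5 and 17.3 CPM against 18.4, 25.0 and 38.2 CPM, without overlap. The log2 changes in Btg2 were 1.28 (SE 0.183, adjusted p = 1.19e-06), 0.63 (SE 0.180, adjusted p = 0.0586) and 0.95 (SE 0.181, adjusted p = 0.000477). In HFS a call was gained in 3 of 12 fits that each left out 1 mouse. Replicates 5 and 6 were the highest HFS HC zt3 mice for Btg2, at 24.7 and 22.3 CPM, and for Ier2, at 10.0 and 11.1 CPM.

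Ier2, a nuclear protein of the immediate early class, rose on every diet. It lay between 4.54 and 11.1 CPM in the 18 HC zt3 mice and between 9.16 and 18.9 CPM in the 18 ORM+1 h mice, with an overlap from HFS, where 5 of 6 trained mice were above all home cage mice. The log2 changes were 1.19 (SE 0.208, adjusted p = 5.99e-05), 0.82 (SE 0.207, adjusted p = 0.0245) and 1.21 (SE 0.208, adjusted p = 7.63e-05), and the call in HFS was lost in 6 of 12 fits without 1 mouse.

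Ier5 had the smallest change of the genes that rose in NC. Its 18 HC zt3 mice held 56.4 to 79.8 CPM and its 18 ORM+1 h mice 86.2 to 121 CPM, with no overlap. It rose by 0.52 (SE 0.121, adjusted p = 0.00279) in NC, 0.77 (SE 0.121, adjusted p = 2.01e-05) in HFS and 0.85 (SE 0.122, adjusted p = 1.48e-06) in TRF.

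**Figure D2:**
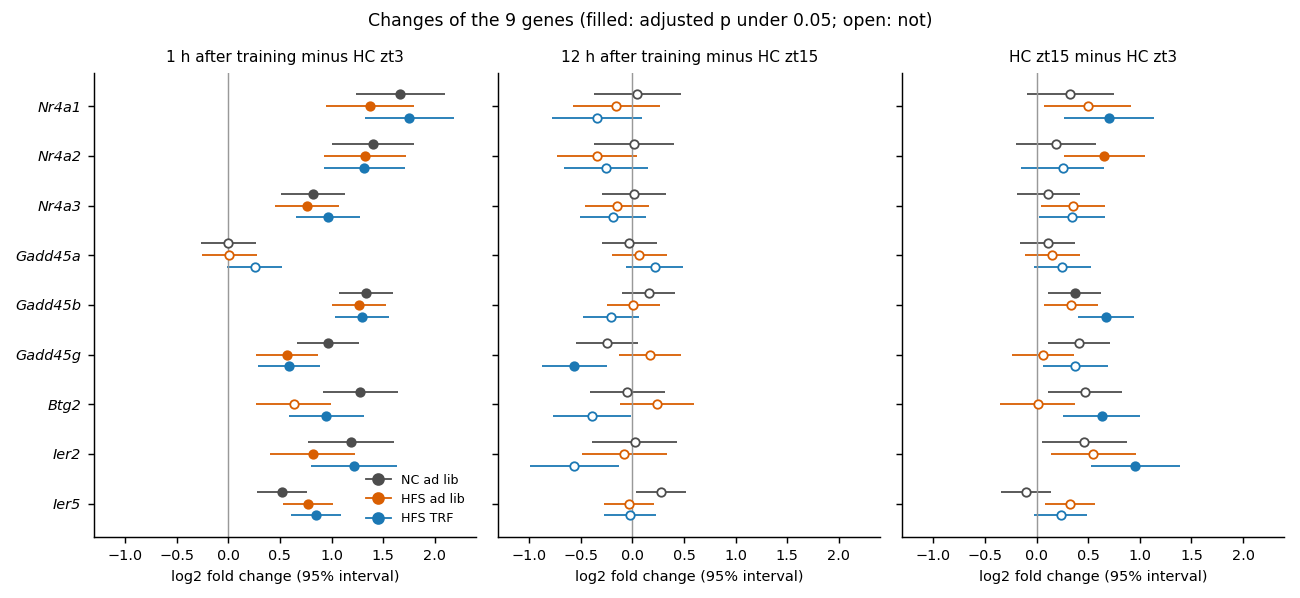
Log2 fold change of each gene (vertical) with its 95% interval, for training at +1 h, training at +12 h and home cage zt15 against zt3 (panels), by diet (colour), filled points passing the adjusted p of 0.05. At +1 h all points except those of Gadd45a and of Btg2 in HFS are filled, from 0.52 to 1.75, and at +12 h 1 point is filled, Gadd45g in TRF at -0.56.

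Astrocyte markers moved with training too. All 8 astrocyte markers were called higher at ORM+1 h in NC, 1 in HFS and 7 in TRF. Their summed CPM was 958 to 1229 at HC zt3 and 2054 to 3407 at ORM+1 h in NC, without overlap. In HFS it was 780 to 2375 against 1381 to 3185, and in TRF 728 to 1661 against 1557 to 2836. No marker of blood, microglia or choroid plexus was called at +1 h on any diet, though the microglial sum was lower after training without overlap in NC (59.2 to 67.3 and 50.5 to 59.0 CPM) and TRF (67.5 to 74.5 and 46.1 to 59.6 CPM), and 2 of 8 neuronal markers were called lower in NC.

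With the astrocyte sum added to the model as a covariate, a fit chosen after seeing the data, the receptors, Gadd45b and Ier5 kept their calls on all diets. For Nr4a1 the change became 1.41, 1.26 and 1.55, for Nr4a2 1.72, 1.47 and 1.59, so that Nr4a2 then had the larger value on every diet, and for Gadd45b 1.04, 1.14 and 1.04. The calls lost were Ier2 in NC (0.71, adjusted p = 0.111), Gadd45g (0.43, adjusted p = 0.140) and Ier2 (0.60, adjusted p = 0.128) in HFS, and Gadd45g (0.32, adjusted p = 0.418) and Btg2 (0.46, adjusted p = 0.194) in TRF. The astrocyte sum itself differs between the groups compared, so that what the covariate takes away and what training changed cannot be told apart. Without the 19 mice whose choroid plexus sum was over 5000 CPM, all calls at +1 h held in NC and TRF, and in HFS Gadd45g (adjusted p = 0.235) and Ier2 (adjusted p = 0.0851) lost theirs.

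**Figure D3:**
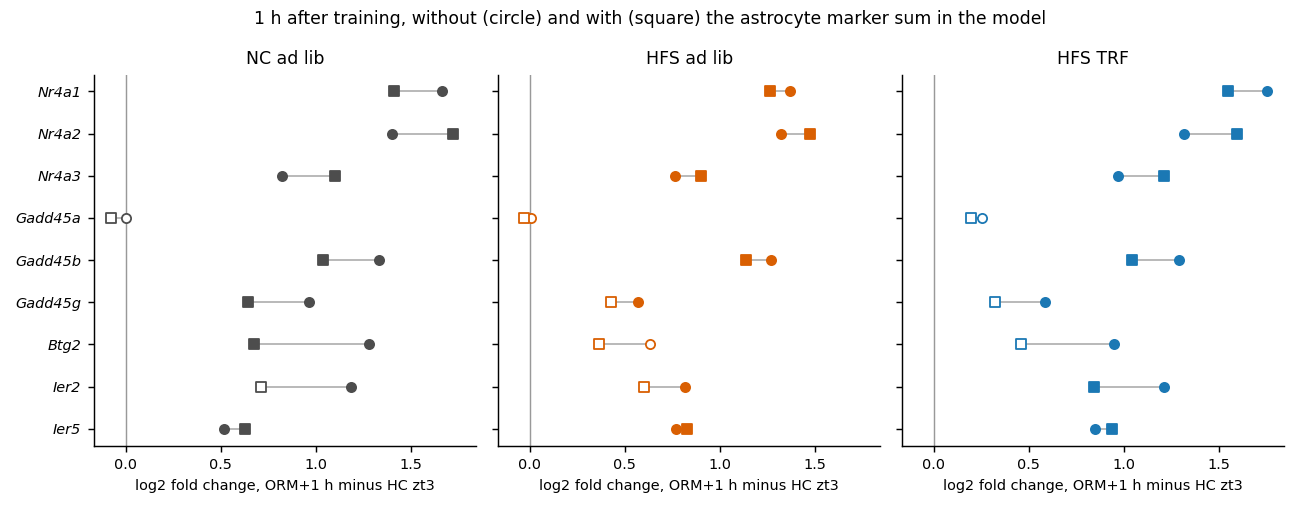
Log2 fold change 1 h after training for each gene (vertical) on each diet (panels), without (circles) and with (squares) the astrocyte marker sum in the model, filled where the adjusted p was under 0.05. Nr4a2, Nr4a3 and Ier5 lie further to the right with the covariate on all 3 diets, and Gadd45g, Btg2 and Ier2 lie further to the left, with Btg2 in TRF going from 0.95 to 0.46.

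Of the genes known to work with these members, the chaperones of the endoplasmic reticulum, which NR4A receptors have been linked to, had the highest share of calls at +1 h in NC. Of 15 tested, 7 rose in NC, 1 in HFS and 2 in TRF, against 4.03%, 0.74% and 2.24% of all genes, and the median log2 change of the list was 0.53, 0.46 and 0.38. Creld2 rose by 1.08 and Pdia4 by 0.97 in NC, Sdf2l1 by 1.36 in HFS and 1.26 in TRF, and Xbp1, a factor of the unfolded protein response, by 0.62 in TRF. Of 16 factors upstream of such genes (CREB, SRF and MEF2 with their cofactors), 3 rose and 2 fell in NC, 1 rose in HFS and 4 rose in TRF. Crem, a CREB relative that also yields an inducible repressor, rose on all diets by 0.63, 0.71 and 0.58, and the coactivator gene Ep300 rose by 0.39 in TRF. In NC the CREB coactivator Crtc3 rose by 0.33, and Crtc1 fell by 0.26 and Mef2c by 0.28. Of 12 relatives of the Ier genes and HSF1 targets, 2, 3 and 2 rose, and the HSF1 target Dnajb1 rose on all diets by 0.97, 0.83 and 0.90, with Hspe1 at 0.31 in NC and 0.42 in HFS and Hspa1a at 0.46 in TRF.

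Of 16 DNA methylation and demethylation genes tested, a pair passed. Tet1, which oxidises methylcytosine, fell by 0.61 in HFS and its relative Tet3 rose by 0.49 in TRF. Of 14 kinase and cell cycle partners of GADD45, 1 rose on each diet, Map2k3 by 0.37 in NC and the cell cycle inhibitor Cdkn1a by 0.82 in HFS and 0.67 in TRF, and Mapk11 fell by 0.35 and Map2k7 by 0.19 in NC. Of 13 genes of the BTG and CCR4-NOT group, 3 rose in NC and 2 in TRF, with Btg1 at 0.44 and 0.40 and Cnot6 at 0.44 and 0.38. Of 10 partners and coactivators of NR4A receptors, Rcor1, which joins NR4A proteins to repressive complexes, rose by 0.22 in NC and 0.26 in TRF.

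At 12 h after training 0 of the 9 genes passed in NC and in HFS, and 1 fell in TRF (edgeR). Among all genes tested 0.209%, 0.179% and 2.46% were called in either direction on these diets. At an unadjusted p under 0.05 edgeR gave 1 of the 9 in NC, 0 in HFS and 3 in TRF, against 16.8%, 17.0% and 21.5% of all genes. DESeq2 called 0, 0 and 1 of the 9, against 1.00%, 0.836% and 5.61% of all genes. The log2 changes lay between -0.24 and 0.28 in NC, between -0.35 and 0.24 in HFS and between -0.56 and 0.21 in TRF.

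The gene that fell was Gadd45g in TRF. It held 26.1, 30.8 and 33.8 CPM (lowest, median and highest of 5) at HC zt15 and 18.1, 20.8 and 22.7 CPM (of 6) at ORM+12 h, all 6 trained mice lying below all home cage mice. The change was -0.56 (SE 0.157, adjusted p = 0.0372). The choroid plexus sum had a median of 7817 CPM (409 to 18695) at HC zt15 and 403 CPM (191 to 10561) at ORM+12 h. Other sums were higher after training, without overlap, at 854 to 1105 and 1139 to 1331 CPM for 6 markers of myelinating oligodendrocytes and at 157 to 210 and 226 to 270 CPM for dentate granule cells. The neuronal sum was 15597 to 17365 and 17099 to 21010 CPM. The part of these cell types in the result was not tested. Without the 19 mice with a choroid plexus sum over 5000 CPM, which left 2 of 5 HC zt15 and 5 of 6 ORM+12 h mice, the Gadd45g change was -0.41 (adjusted p = 0.479), and with the astrocyte sum in the model it was -0.48 (adjusted p = 0.0652). The call was also lost in 6 of 11 fits that each left out 1 mouse. All trained mice lay below all home cage mice for 0.756% of all genes.

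Of the receptors at this time, Nr4a1 in TRF was 67.7, 94.9 and 155 CPM at HC zt15 and 54.8, 69.8 and 118 CPM at ORM+12 h, with overlap and a change of -0.34 (95% interval -0.78 to 0.09). In NC it was 56.8 to 155 CPM against 64.0 to 144 CPM, a change of 0.05 (-0.37 to 0.47). The 2 other TRF genes with an unadjusted p under 0.05 were Ier2 at -0.56 and Btg2 at -0.39, with adjusted p of 0.122 and 0.212, and the NC gene was Ier5 at 0.28 (adjusted p = 0.241). Of the 97 genes in the 7 lists of partners, those that passed at +12 h were Mrtfa, an SRF cofactor, which rose by 0.30 in NC, and Elk1, another SRF partner, which rose by 0.32 in TRF.

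Home cage mice of zt15 and zt3 came from separate experiments, so the hour and the experiment cannot be told apart. In TRF access to food differed between them as well, and cannot be told apart from either. With these limits, 1 of the 9 genes was higher at zt15 in NC, 1 in HFS and 4 in TRF, against 5.18%, 3.88% and 5.95% of all genes tested. None of the 9 was called lower. The median change of the 9 genes was 0.33, 0.33 and 0.38, against 0.00, -0.01 and 0.00 over all genes.

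In TRF the genes that rose were Gadd45b, Ier2, Btg2 and Nr4a1. Gadd45b held 22.1, 23.3 and 31.1 CPM at zt3 and 31.3, 40.2 and 47.1 CPM at zt15, all 5 zt15 mice lying above the 6 zt3 mice, and rose by 0.67 (SE 0.135, adjusted p = 0.000139). Ier2, at 4.58 to 9.14 CPM and 9.98 to 14.3 CPM, rose by 0.96 (SE 0.216, adjusted p = 0.000811), and Btg2, at 10.2 to 17.3 CPM and 17.9 to 24.0 CPM, by 0.63 (SE 0.188, adjusted p = 0.0143), both without overlap. All zt15 mice lay above all zt3 mice for 3.1% of all genes in TRF. Nr4a1, at 52.7 to 77.4 CPM and 67.7 to 155 CPM, overlapped and rose by 0.70 (SE 0.220, adjusted p = 0.0203).

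On the other diets a single gene passed each time. Gadd45b in NC was 23.0 to 31.3 CPM at zt3 and 25.3 to 44.5 CPM at zt15 and rose by 0.37 (SE 0.129, adjusted p = 0.0483), a call lost in 8 of 12 fits without 1 mouse. Nr4a2 in HFS was 46.5 to 60.3 CPM at zt3 and 57.2 to 131 CPM at zt15, with 5 of 6 mice above all zt3 mice, and rose by 0.66 (SE 0.195, adjusted p = 0.0177), a call lost in 2 of 12.

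Markers of several cell types moved between these home cage groups as well. Of 8 astrocyte markers 8, 3 and 7 were higher at zt15 in NC, HFS and TRF, and of 5 blood markers 5, 0 and 5. In TRF the astrocyte sum was 728 to 1661 CPM at zt3 and 2028 to 2975 at zt15, and the blood sum 97.0 to 229 and 378 to 538. The sum of 3 markers of oligodendrocyte precursors was higher at zt15 without overlap on all diets. It was 50.8 to 59.9 and 68.8 to 97.8 CPM in NC and 53.8 to 63.2 and 69.0 to 96.6 in HFS. In TRF it was 48.4 to 67.3 and 73.1 to 87.1. Only 1 of these 3 markers was called higher on each diet, and their median log2 change was 0.05, 0.01 and -0.24. Most of the sum is Gpr17, with a median of 54.1 CPM over all mice against 10.7 for Pdgfra and 5.14 for Cspg4. The CA1 sum was lower without overlap in NC, at 419 to 644 and 307 to 380 CPM, and in TRF, at 439 to 531 and 294 to 414. The choroid plexus sum in TRF had a median of 2538 CPM at zt3 and 7817 at zt15. Without the mice over 5000 CPM, which left 4 and 2 mice, Btg2 (0.51, adjusted p = 0.268) and Nr4a1 (0.85, adjusted p = 0.0967) had no call in TRF. With the astrocyte sum in the model none of the 4 TRF calls held, with Gadd45b at 0.41 (adjusted p = 0.0725), Ier2 at 0.53 (adjusted p = 0.167), Btg2 at 0.07 (adjusted p = 0.915) and Nr4a1 at 0.48 (adjusted p = 0.273), while Nr4a3 passed at 0.60 (adjusted p = 0.0275). Gadd45b in NC was then at 0.12 (adjusted p = 0.705), and the Nr4a2 call in HFS held at 0.82 (adjusted p = 0.0031). Of the partner lists, the BTG and CCR4-NOT group had 4 of 13 higher in NC, 3 in HFS and 4 in TRF, with Btg1 at 0.48, 0.38 and 0.65, and Cnot1, the scaffold of the complex, was lower by -0.38 in HFS and -0.34 in TRF.

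Diet by itself gave 0 calls in the 9 genes. In each of the 4 conditions HFS was compared with NC, TRF with HFS and TRF with NC, and 0 of 108 tests passed. Among all genes 0% were called in the HC zt3 and ORM+1 h comparisons. At HC zt15 0.063% were called for HFS against NC and 0% in the other comparisons, and at ORM+12 h 2.27% for HFS against NC, 0.00664% for TRF against HFS and 8.78% for TRF against NC. At an unadjusted p under 0.05 edgeR gave 5 of the 108, or 4.63%, a smaller share than the 11.5% over all genes in these comparisons, and DESeq2 called 0. The differences ran from -0.36 to 0.45 on the log2 scale, with SE between 0.121 and 0.220.

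The 5 are given as values only. Gadd45g made up 4 of them. It differed by -0.36 (adjusted p = 0.496) between HFS and NC at ORM+1 h and by -0.32 (adjusted p = 0.382) at HC zt15. Between TRF and HFS it differed by 0.42 (adjusted p = 0.249) at HC zt15 and by -0.31 (adjusted p = 0.396) at ORM+12 h. The fifth was Nr4a2 at HC zt15, with 57.2 to 131 CPM in HFS and 38.2 to 88.5 CPM in NC, a difference of 0.45 (adjusted p = 0.367).

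Interaction terms asked whether the size of a change depended on diet, and 0 of 81 passed. Among all genes 0.106% passed for the +12 h change between HFS and NC, and 0% passed in the other 8 comparisons of changes. In edgeR 5 of the 81, or 6.17%, had an unadjusted p under 0.05, against 9.77% over all genes, and DESeq2 called 0. The +1 h change in Btg2 differed by -0.65 between HFS and NC (SE 0.255, 95% interval -1.15 to -0.14, adjusted p = 0.711). The +12 h change in Gadd45g differed by -0.74 (SE 0.217, adjusted p = 0.144) between TRF and HFS, and that in Btg2 by -0.63 (adjusted p = 0.231). For the receptors at +1 h the intervals of these differences ran from -0.89 to 0.30 for Nr4a1 between HFS and NC and from -0.21 to 0.97 between TRF and HFS, so sizeable differences in either direction were not detectable at this number of mice.

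The spread between mice of a group was itself uneven, while the model held 1 estimate of it per gene over the 12 groups. The SE and p-values above therefore do not widen where the spread was larger, nor narrow where it was smaller. For Nr4a3 between TRF and HFS the SE was 0.154 at HC zt3 and 0.162 at HC zt15. At HC zt3 the SD within groups, in log2 units, was 0.218 for Nr4a2, 0.148 for Nr4a3 and 0.111 for Ier5. At HC zt15 it was 0.555, 0.425 and 0.351 for the same genes, while Gadd45g went from 0.339 to 0.249. In that second experiment the mice of low and of high NR4A level were not spread evenly over the replicate numbers of the labels. Of the 12 mice numbered 1 or 2, 12 were below their group mean for Nr4a1, 12 for Nr4a2 and 12 for Nr4a3, and of the 11 mice numbered 5 or 6, 2, 1 and 2 were below it. In the first experiment 6, 4 and 7 of 12 mice numbered 1 or 2 and 6, 8 and 8 of 12 mice numbered 5 or 6 were below it. These counts pool home cage and trained mice, so opposite deviations can cancel in them. In HFS the Nr4a1 deviations of mice 5 and 6 were 0.57 and 0.56 at HC zt3 and -0.41 and -0.32 at ORM+1 h. Ier5 had 11 of 12 and 0 of 11 below in the second experiment and Ier2 had 10 of 12 and 2 of 11. Gadd45g had 3 of 12 and 6 of 11 there, and Btg2 had 4 of 12 and 3 of 11. In the first experiment Gadd45g had 10 of 12 and 5 of 12 below and Btg2 had 9 of 12 and 4 of 12, so their split was seen there instead. The share of all genes that split by number was not computed. What the number stands for was not given in the sources used here, the grouping of numbers was made after seeing the values, and no cause was tested.

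**Figure D4:**
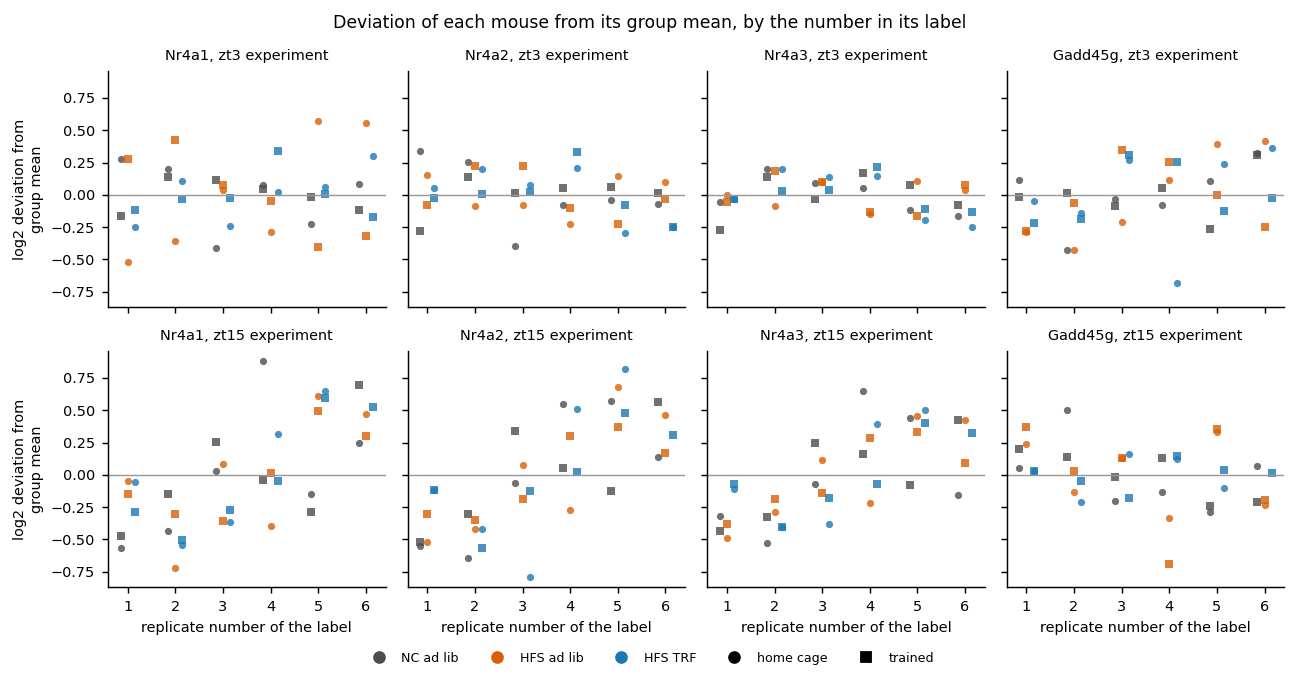
Log2 deviation of each mouse from the mean of its group (vertical) by the replicate number in its label (horizontal), for Nr4a1, Nr4a2, Nr4a3 and Gadd45g in the zt3 experiment (top) and the zt15 experiment (bottom), coloured by diet, circles for home cage and squares for trained mice. In the zt15 experiment the mice numbered 1 and 2 lie below 0 for the receptors, 12 of 12 each, and those of Gadd45g do not.

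After removal of the group means the receptors moved together from mouse to mouse. Over the 71 mice, which share 2 experiments, Pearson r of the deviations was 0.92 between Nr4a2 and Nr4a3, 0.77 between Nr4a1 and Nr4a2 and 0.72 between Nr4a1 and Nr4a3. Without the 2 mice farthest out on the first gene these were 0.92, 0.74 and 0.68. Between Nr4a1 and Nr4a3 r was 0.10 in the 18 HC zt3 mice, 0.59 at ORM+1 h, 0.83 in the 17 HC zt15 mice and 0.88 at ORM+12 h. Over the 71 mice Ier5 went with the receptors, at 0.75 with Nr4a2 and 0.67 with Nr4a1, but not in every condition. With Nr4a2 its r was -0.002 at HC zt3, 0.65 at ORM+1 h, 0.88 at HC zt15 and 0.73 at ORM+12 h. With Nr4a1 it was 0.46, 0.13, 0.83 and 0.69 in the same order, and with Nr4a3 -0.48, 0.71, 0.84 and 0.72.

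Btg2 and Ier2 formed a second pair, at r = 0.68 over the 71 mice. By condition it was 0.72 at HC zt3, 0.93 at ORM+1 h, 0.78 at HC zt15 and 0.47 at ORM+12 h. Nr4a1 stood between the groups, at 0.75 with Ier2 and 0.52 with Btg2. Gadd45b went with Btg2 at 0.55 and with Gadd45g at 0.40, and Gadd45g had an r of -0.24 with Nr4a3 and 0.48 with Btg2. These values differed by condition. In the order above, Gadd45b had 0.78, 0.70, 0.36 and 0.15 with Btg2 and 0.63, 0.51, -0.01 and 0.37 with Gadd45g. With Nr4a2 it had 0.13, 0.80, 0.40 and -0.17. Gadd45a had an r of at most 0.24 with any of the others.

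**Figure D5:**
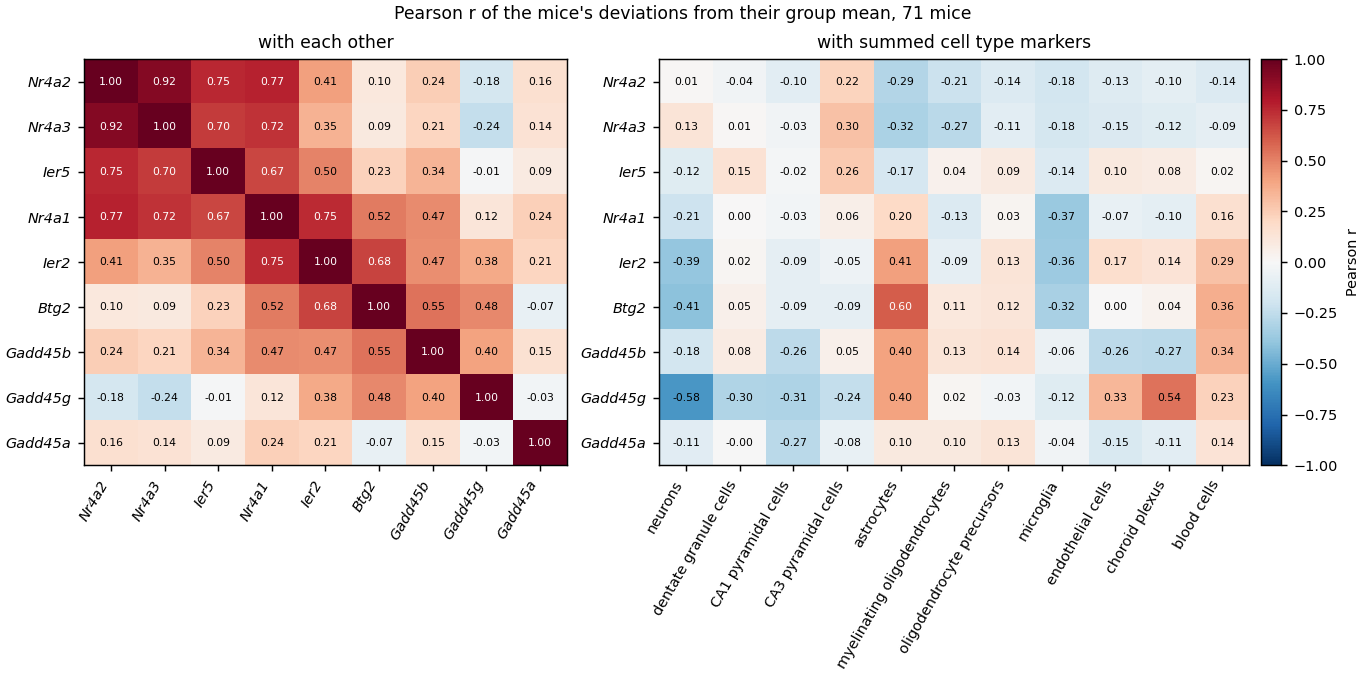
Pearson r over the 71 mice between the genes (left) and of the genes with the summed markers of each cell type (right). It was computed on log2 levels after subtracting each group's mean and is shown as a colour with its value in each cell. Off the diagonal of the left panel Nr4a2 with Nr4a3 has the highest value at 0.92. The row of Gadd45a is pale there, with no value over 0.24.

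Against the cell type markers, computed the same way, the members split again. The astrocyte sum had an r of 0.60 with Btg2, 0.41 with Ier2, 0.40 with Gadd45b and 0.40 with Gadd45g over the 71 mice, and -0.29 with Nr4a2 and -0.32 with Nr4a3. Gadd45g also had 0.54 with the choroid plexus sum and -0.58 with the neuronal sum. All genes of a library share its total, and no part of these relations in the results was tested.

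The genes most like each member over the 71 mice, by Pearson r of log2 CPM among 14699 genes, were mostly early genes. Nr4a1 was closest to Fos (0.97), Junb (0.97) and Egr1 (0.97), and Nr4a2 to Nr4a3 (0.96), Egr1 (0.96) and Fosb (0.95). Nr4a3 followed Nr4a2, then Egr1 (0.93) and Fosl2 (0.92). Gadd45b was closest to Junb (0.93), Errfi1 (0.93) and Sertad1 (0.92), and Ier5 to Fosb (0.90), Fosl2 (0.90) and Nfil3 (0.89). Ier2 was closest to Dusp1 (0.92), Arc (0.90) and Fos (0.89), and Btg2 to Arc (0.87), Dusp1 (0.86) and Trib1 (0.86).

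Gadd45g had other company, with Acss1 (0.87), which makes acetyl-CoA from acetate, Arhgef19 (0.84) and Pdk4 (0.82), an inhibitor of pyruvate dehydrogenase. After subtraction of the group means its closest genes were S100a1 (0.86), Dbi (0.86) and Zfp36l1 (0.84). Gadd45a had no close neighbour, the nearest being Cdc42ep2 at 0.51. These are likenesses over mice that share groups and experiments, and say nothing of a common control.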

How the data were processed

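Hippocampal pS6-TRAP libraries of 71 mice were prepared with a stranded mRNA kit. According to the methods and the submitters' processing notes, the authors trimmed reads with Trim Galore 0.6.7 and cutadapt 3.4, aligned them with HISAT2 2.2.0 to GRCm39 and counted them per gene with featureCounts (Subread 2.0.3). The deposited values are raw counts. The notes also list mm9, with no role given.

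Gene symbols were matched for 56310 of 57010 identifiers. Genes with at least 10 counts in total were tested with edgeR 4.0.16 (R 4.3.3, limma 3.58.1), with TMM scaling and a quasi-likelihood fit of 12 groups. P-values were adjusted by Benjamini-Hochberg within each of 30 comparisons, with a threshold of 0.05. The study used DESeq2, and version 1.42.0 of it was an alternative here. Log2 CPM used a prior count of 2. The fits were tested on simulated data. Promoter windows came from RefSeq (GRCm38.p6 table) and were matched exactly to GRCm39. Figures and summaries used Python 3.11.15 with numpy 2.4.6, pandas 2.3.3, scipy 1.17.1 and matplotlib 3.10.9.

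The members, lists and tests were chosen with earlier results of these data known. Named were all 9 members, the 2 called genes of each of 7 lists with the smallest p in each direction and comparison, and the 3 genes with the highest Pearson r with each member over 71 mice, also after subtracting group means. A list gene that this rule picks is not reported here. The astrocyte covariate and the choroid plexus limit were chosen after seeing the data.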

Additional observations from a re-analysis of the deposited data

Results flagged for a closer look

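In 5 of 108 groups of gene, diet and condition the highest or lowest mouse stood far from the rest by Dixon's test, a share that chance gives in about 1 of 20 groups. Nr4a1 in TRF ORM+1 h was 269 CPM in replicate 4, the next mouse being at 213 CPM. In the same mouse Gadd45b was 82.1 CPM, the next being at 61.4 CPM. Nr4a2 in NC ORM+1 h was 120 CPM in replicate 1, below the next lowest at 146.5 CPM. Gadd45a in HFS ORM+1 h was 3.19 CPM in replicate 3, below the next lowest at 4.59 CPM. Ier5 in TRF HC zt3 was 73.0 CPM in replicate 6, above the next highest at 61.5 CPM.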

How the results depend on the processing

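Of 57 member values, 30 of them called, the alternatives that kept all mice or used the added settings gave 428 values with the same direction and side of the threshold, 21 that lost a call, 10 that gained one and 7 that reversed. At +1 h the number of members called stayed at 7 to 8 in NC, 5 to 8 in HFS and 6 to 8 in TRF. At +12 h in TRF 1 became 0 without mice of high choroid plexus markers and 0 with the astrocyte covariate. For zt15 against zt3 in NC, 1 became 0 with DESeq2 size factors, 0 with only the groups compared, 0 with the astrocyte covariate and 2 with DESeq2. In HFS 1 became 3 with DESeq2 and 3 with the astrocyte covariate, and in TRF 4 became 2 without mice of high choroid plexus markers and 1 with the astrocyte covariate. Diet comparisons and interactions gave 0 calls in every setting tried. Without 1 mouse at a time the counts ran at +1 h from 8 to 8, 5 to 8 and 7 to 8, at +12 h from 0 to 0, 0 to 0 and 0 to 1, between zt15 and zt3 from 0 to 4, 0 to 3 and 3 to 4 (NC, HFS, TRF), and for diets and interactions from 0 to 0. The cause of these changes was not tested.

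Gadd45a at +1 h, near 0, reversed in NC to -0.013 with DESeq2 size factors, -0.033 with filterByExpr, -0.013 with DESeq2, -0.00993 with only the groups compared and -0.074 with the astrocyte covariate, and in HFS to -0.029 with that covariate. Without 1 mouse it ran from -0.053 to 0.054 and from -0.040 to 0.096. Btg2 between zt15 and zt3 in NC became -0.0436 with the astrocyte covariate.

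Over the 14699 genes compared for likeness, r between the deviations of same-numbered mice ran from -0.69 to 0.71 and was not over 0.1 in every pair. The replicate numbers were not taken as pairs, although the receptors split by number in the second experiment. Mice of different numbers were not compared, so these r cannot show whether the number carries shared variation. With a replicate block, zt15 against zt3 gave 0 calls in NC and 2 in HFS, and +1 h in HFS gave 8.

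Counts over all genes moved more. At +1 h 1727, 371 and 864 genes were called (NC, HFS, TRF), with ranges over the settings of 417 to 2558 and 86 to 747 on the first 2 diets, and on TRF 494 with the astrocyte covariate and 1631 with only the groups compared. At +12 h 63, 54 and 741 became 0 to 303, 0 to 252 and 1 to 1691. Between zt15 and zt3 3534, 3139 and 4282 became 2023 to 3916, 1873 to 3513 and 1716 to 4702. At ORM+12 h HFS against NC had 684 (0 to 1452) and TRF against NC 2645 (1382 to 3313), and the +12 h interaction of HFS with NC had 32 (0 to 615). At ORM+1 h HFS against NC had 0 (0 to 87, with 21 by DESeq2). With 5 or 6 mice a group, differences between diets smaller than about their intervals were not detectable.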

Other observations

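Partner genes also differed between the home cage mice of zt15 and zt3. There the hour, the experiment and, in TRF, access to food cannot be told apart. Among all genes tested 11.72%, 10.41% and 14.21% were called in either direction in NC, HFS and TRF. Of those calls 44.2%, 37.24% and 41.85% were higher at zt15 and the rest lower. Of the GADD45 partners, Map2k3, a kinase upstream of p38, was higher on all diets, by 0.33 in NC, 0.37 in HFS and 0.51 in TRF, and Cdk1 by 1.00 in NC, while Mapk11, a p38 kinase, was lower by -0.62 in NC and -0.50 in TRF. Tob2, an antiproliferative relative of Btg2, was higher by 0.68 in NC and 0.73 in TRF, and Btg3 by 0.50 in HFS. Of 10 NR4A partners, Rxra was higher by 0.37 in NC and 0.33 in HFS, and Rxrg (-0.88) and Ncoa1 (-0.25) were lower in TRF.

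Of 16 upstream factors 2, 3 and 3 were higher in NC, HFS and TRF, with the coactivator Crebbp at 0.31, 0.22 and 0.23, Atf1 at 0.45 in NC, Srf at 0.25 in HFS and Crtc3 at 0.27 in TRF. Of 15 chaperones 2 were higher on each diet, Pdia4 (0.82) and Dnajc3 (0.59) in NC, and Xbp1 and Sdf2l1 in HFS (0.60 and 1.03) and TRF (0.58 and 1.04). Of 12 Ier relatives and HSF1 targets, Dnajb1 was higher by 0.42 in HFS, Hspb1 by 2.05 and Hspe1 by 0.32 in TRF, and Ppp2r2a was lower in HFS (-0.27) and TRF (-0.22), as was Hsph1 in TRF (-0.37). Of 16 methylation genes Dnmt3a was higher by 0.26 in NC and 0.25 in HFS and Tet2 by 0.40 in NC, and Ercc5 in HFS (-0.32) and Dnmt1 in TRF (-0.36) were lower.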
